A study of Rattus norvegicus with 26 samples.

Results

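The 38 genes described here are 25 genes of glycolysis and its control and 13 genes of the response to low oxygen, out of 35287 gene names on the array. They were chosen by name, and each gene was measured by its brightest probe. All 38 had a probe, and 36 were tested, since the scanner software called them well above background throughout at least 1 group of arrays. *Pdk4*, a kinase that restrains pyruvate oxidation, and *Car12*, a membrane carbonic anhydrase, were not: *Pdk4* was not well above background on any of the 26 arrays, and *Car12* was on single arrays of some groups. RNA came from rat multipotent adult progenitor cells (rMAPCs), bone marrow cells of female Fischer rats that express *Oct4* and were grown as clonal lines. The clone Cl19 came from a donor aged 3 weeks and the clone 3c3 carries the donor age E18. Both were taken on d0 and after 2, 4 and 6 days with TGF-β and PDGF-BB in basal medium, a treatment that drives the cells towards smooth muscle, with 3 arrays for each line and day. Each line is 1 clone, and where the 3 arrays were not separate cultures the p-values measure only the spread between these samples. The other group, Prim, is 2 arrays of commercially obtained rat aortic RNA, described in the study as from primary smooth muscle cells (SMCs); the labels and the methods name different suppliers. The methods place the differentiation under low oxygen, and the study's own cultures of primary aortic SMCs under higher oxygen. A figure legend describes the array RNA as from cultured cells of that kind, while the array methods list bought RNA. The oxygen of the d0 cultures and of the cells behind bought RNA is not given in the sources used here. In RNA of whole cultures, fewer cells of a type and less RNA per cell cannot be told apart.

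Glycolysis turns glucose into pyruvate, and lactate dehydrogenase turns pyruvate into lactate when it is not burned in mitochondria. Growing, poorly oxygenated cells carry a large flow through this route. When oxygen is scarce, prolyl hydroxylases stop marking the α subunits of the hypoxia-inducible factors (HIFs) for destruction. The factors then switch on glucose transporters, most glycolytic enzymes, kinases that restrain pyruvate oxidation, and genes such as *Vegfa*, *Adm* and *Bnip3*. The HIF α subunits are controlled mainly as proteins, which an array does not measure. *Gapdh*, an enzyme of lower glycolysis, is also the gene to which RT-qPCR values are often scaled, and it was used in this way in the study.

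HIFs bind a short core sequence, ACGTG or, less strongly, GCGTG, which is why promoters of the members are shown. RefSeq promoters of the assembly GRCr8, each 300 bases long and mostly before a gene's start, were matched by symbol for 35 of the 38 members, and *Pkm2* was matched under its present symbol *Pkm*. *Pgk1*, *Slc2a3* and *Ndrg1* were not matched. Both strands were searched, and a palindrome CACGTG was counted as 1 site. ACGTG lay in 19 of the 35 member promoters (54.3%), in 25.4% of the 9308 promoters of all genes that were tested, and in 19.3% of all 33469 promoters of the same length. GCGTG lay in 16 (45.7%), against 48.5% and 29.7%. Promoters rich in CG dinucleotides hold such letters more often, and the median number of CG was 20 in the members, 20 in the tested genes and 7 in all promoters. A match is a run of letters and not a shown binding site. Of the 15 members called higher on d4 in both lines, 12 had a promoter and 8 of these held ACGTG (66.7%), as did 11 of the 23 other members (47.8%). GCGTG lay in 6 of the 12 (50%) and in 10 of the 23 (43.5%). With either core counted, the shares were close, at 8 (66.7%) and 15 (65.2%). The median number of CG was 21.5 in the 12 and 18 in the 23, and its part in the shares was not tested. The promoters of *Bnip3*, *Pdk1* and *Ldha* are printed as examples of those that hold it, and that of *Adm* because it rose most; capitals mark ACGTG or its complement CACGT. *Adm* has neither run of letters in this window, which says nothing about the rest of the gene.
*Bnip3* promoter, chr1:203154913-203155212, minus strand: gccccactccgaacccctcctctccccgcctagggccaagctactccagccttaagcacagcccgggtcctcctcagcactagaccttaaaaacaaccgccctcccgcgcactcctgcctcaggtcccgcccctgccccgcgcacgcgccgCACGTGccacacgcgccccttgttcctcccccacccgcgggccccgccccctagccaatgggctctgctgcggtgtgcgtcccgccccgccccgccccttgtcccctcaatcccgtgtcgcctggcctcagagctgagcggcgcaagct
*Pdk1* promoter, chr3:77113264-77113563, plus strand: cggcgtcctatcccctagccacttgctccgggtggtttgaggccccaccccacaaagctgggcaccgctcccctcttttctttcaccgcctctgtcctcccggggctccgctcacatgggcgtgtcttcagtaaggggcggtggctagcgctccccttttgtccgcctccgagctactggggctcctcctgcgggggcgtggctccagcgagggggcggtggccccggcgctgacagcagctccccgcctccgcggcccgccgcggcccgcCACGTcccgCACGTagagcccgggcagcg
*Ldha* promoter, chr1:106507842-106508141, plus strand: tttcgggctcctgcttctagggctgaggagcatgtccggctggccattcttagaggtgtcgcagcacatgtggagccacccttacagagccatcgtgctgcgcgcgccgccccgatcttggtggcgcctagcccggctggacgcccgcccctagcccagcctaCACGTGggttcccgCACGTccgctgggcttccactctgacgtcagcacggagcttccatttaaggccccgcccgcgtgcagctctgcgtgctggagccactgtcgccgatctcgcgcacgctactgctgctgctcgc
*Adm* promoter, chr1:174179950-174180249, plus strand: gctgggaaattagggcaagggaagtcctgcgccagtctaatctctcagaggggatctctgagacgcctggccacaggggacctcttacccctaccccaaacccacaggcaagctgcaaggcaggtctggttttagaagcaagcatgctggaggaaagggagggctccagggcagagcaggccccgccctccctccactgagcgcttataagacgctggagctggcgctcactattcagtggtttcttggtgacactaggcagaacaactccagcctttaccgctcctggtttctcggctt

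The probes on which most of the results turn are 60 bases long and are given as the scanner files hold them, with the rn4 position to which the array's annotation assigns them; they identify which part of each transcript was read. Those of *Epas1* and *Ldhb* are assigned to spans longer than the probe.
*Adm* probe, chr1:168382310-168382369, plus strand: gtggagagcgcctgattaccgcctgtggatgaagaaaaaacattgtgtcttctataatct
*Eno2* probe, chr4:160890338-160890397, minus strand: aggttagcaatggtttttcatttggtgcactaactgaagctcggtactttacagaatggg
*Slc2a1* probe, chr5:139718779-139718838, plus strand: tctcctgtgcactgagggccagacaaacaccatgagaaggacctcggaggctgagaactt
*Hif1a* probe, chr6:96463815-96463874, plus strand: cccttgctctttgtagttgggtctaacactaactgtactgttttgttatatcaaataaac
*Epas1* probe, chr6:10295169-10295420, plus strand: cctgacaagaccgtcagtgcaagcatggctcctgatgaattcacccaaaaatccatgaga
*Ldhb* probe, chr4:180061921-180063949, minus strand: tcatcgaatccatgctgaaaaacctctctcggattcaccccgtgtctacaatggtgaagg
*Pdk2* probe, chr10:83710577-83710636, minus strand: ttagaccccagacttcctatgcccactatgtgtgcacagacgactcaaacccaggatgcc
*Gapdh* probe, chr4:161282655-161282714, minus strand: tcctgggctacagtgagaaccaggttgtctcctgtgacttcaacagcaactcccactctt

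Levels are log2 intensities after quantile normalization over all arrays, and they are compared only within a gene. A difference was called when its limma adjusted p (Benjamini-Hochberg over 24442 probes) was below 0.05. Between 43.2% and 61.4% of features were well above background on an array. The array of Cl19 d2 replicate 1 lay nearest to the 3c3 d2 arrays, and the slide of 3c3 replicate 3 had a higher background, so counts that rest on them are also given without them. The 4 days of a replicate shared a slide, with d0, d2, d4 and d6 at positions 1 to 4 in that order, so that day and position cannot be told apart. Each line was scanned on a day of its own, so that the line and the scan day cannot be told apart either. Of the lists of other cell types, all 8 tested visceral endoderm and epithelial markers had risen by d6 in both lines, as had 7 of 10 smooth muscle markers in each line, and 10 of 11 proliferation genes had fallen in both. Of the smooth muscle markers, 1 had fallen in 3c3 and 0 in Cl19. Summed over the array, the epithelial list went from 131933-141321 on d0 to 252197-284230 on d6 in Cl19 and from 135129-144329 to 227489-252127 in 3c3. The proliferation list went from 70483-73348 on d0 to 37321-49146 on d4 and 14086-40943 on d6 in Cl19, and from 73693-76914 to 44437-56982 and 21249-35438 in 3c3. The part of these shifts in the results on the members was not tested.

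Most of the genes were highest on d4. Of the 36 tested members, 24 had their highest group mean on d4 in Cl19 (66.7%) and 25 in 3c3 (69.4%), whereas 15.4% and 14% of all tested probes did. From d0 to d4, 21 members passed the test in Cl19 (47.3% of all probes did), 16 higher and 5 lower, and 25 passed in 3c3 (37% of all probes), 24 higher and 1 lower. The shares of all probes that were called higher on d4 were 20.2% in Cl19 and 14.8% in 3c3, and those called lower 27.1% and 22.2%. The median change from d0 to d4 was 0.71 over the members in Cl19 and 1.06 in 3c3, against -0.16 over all probes in both. In both lines 15 members rose from d0 to d4 (9.78% of all probes): *Aldoa*, *Aldoc*, *Tpi1*, *Pgk1*, *Eno2*, *Pkm2* and *Ldha* among the enzymes, *Slc2a1* and *Slc2a3* among the transporters, *Pdk1* and *Pfkfb3* among the regulators, and *Bnip3*, *Adm*, *Ndrg1* and *Ddit4* among the hypoxia genes. The d4 comparisons were added after the values had been seen. Without the 4 arrays of 3c3 replicate 3, 18 members passed in 3c3, and the highest day was still d4 for 25. Of the 15, *Ldha* and *Pfkfb3* then lost their call in 3c3.

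**Figure D1:**
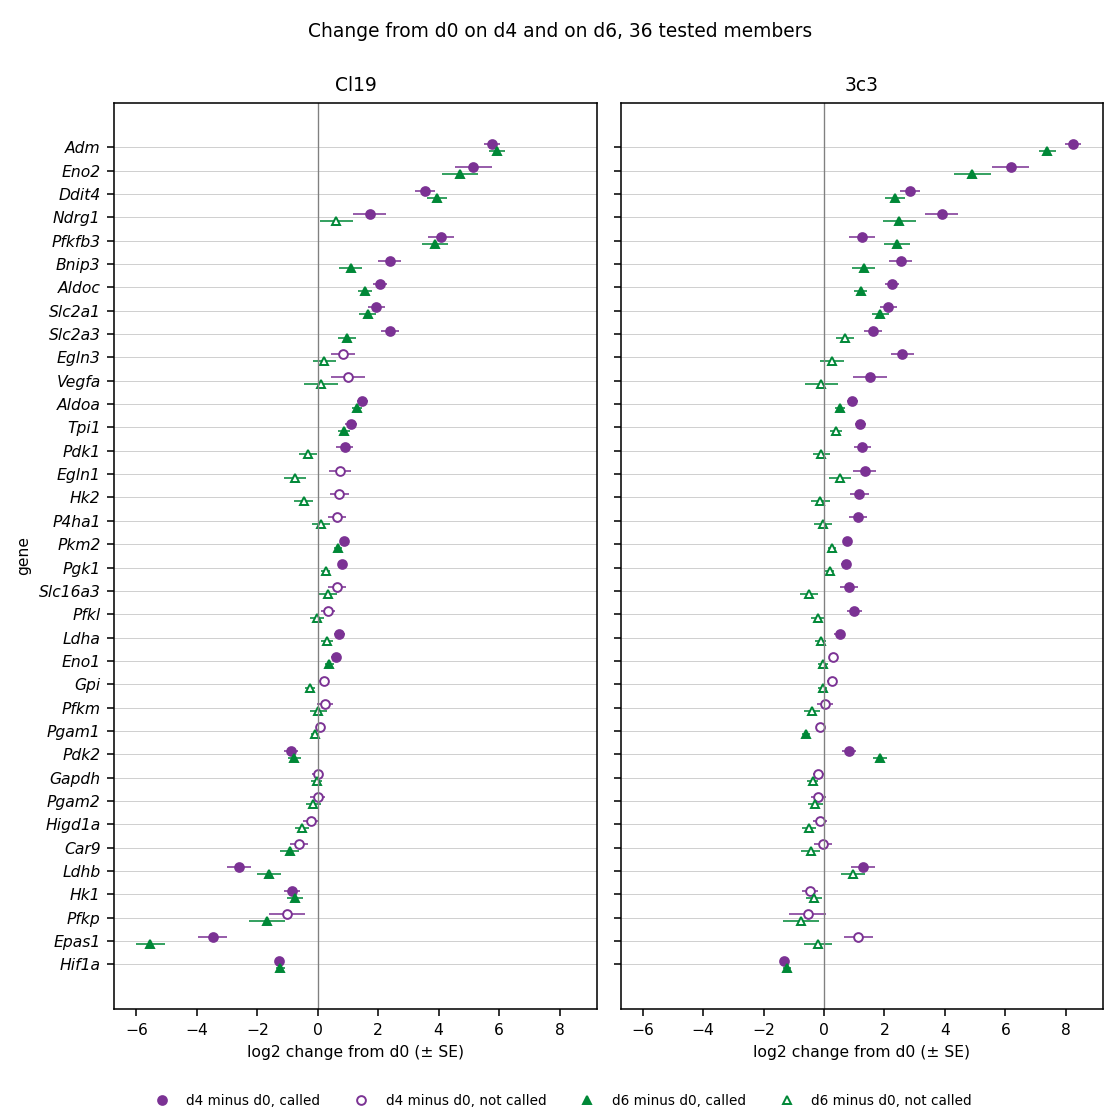
Log2 change from d0 (x axis, ± SE of the fit) of the 36 tested members (y axis) on d4 (circles) and d6 (triangles) in Cl19 (left) and 3c3 (right); filled symbols passed the test. Most circles lie to the right of their triangles, and the 3c3 circles are to the right of 0 for 24 called members.

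*Pgk1*, phosphoglycerate kinase, an enzyme of lower glycolysis, is an example of the d4 peak. It read 14.30, 14.09 and 14.13 on d0 in Cl19, 15.10, 14.83 and 15.02 on d4, and 14.56, 14.31 and 14.46 on d6. Levels in 3c3 were 14.16, 14.22 and 14.18, then 14.82, 14.98 and 14.93, then 14.09, 14.40 and 14.65. The d4 arrays thus lay above all d0 and all d6 arrays in both lines. The rise from d0 to d4 was 1.75-fold in Cl19 (limma adjusted p = 0.00018) and 1.65-fold in 3c3 (adjusted p = 0.00088), and the fall from d4 to d6 was 1.45-fold (adjusted p = 0.033) and 1.44-fold (adjusted p = 0.029). By the 75th percentile the rise of *Pgk1* in 3c3 and its fall in Cl19 were not called. Neither fall was called relative to *Gapdh* or with only the groups compared, and that in 3c3 was also lost without replicate 3. *Ldha*, the lactate dehydrogenase subunit that favours lactate, rose 1.64-fold in Cl19 and 1.43-fold in 3c3 by d4 (adjusted p = 0.0049 and 0.044). By the 75th percentile neither rise of *Ldha* was called (changes of 0.32 and 0.19). That in 3c3 was also lost on the deposited values, with only the groups compared, without replicate 3, and without any 1 of the 6 arrays other than d0 replicate 2 (lowest change 0.41), and the fall from d4 to d6 was not called in Cl19.

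*Bnip3* and *Pdk1* followed the same course. *Bnip3*, which directs mitochondria to breakdown, read 8.87, 9.11 and 9.18 on d0 in Cl19, 11.74, 11.24 and 11.32 on d4, and 9.91, 10.58 and 9.93 on d6. In 3c3 it read 8.67, 9.50 and 9.07, then 10.80, 12.35 and 11.72, then 9.80, 10.70 and 10.69. It was 5.21-fold and 5.83-fold above d0 on d4, and its d6 arrays lay between those of d0 and d4 in each line. *Pdk1*, a kinase by which HIF restrains pyruvate oxidation, was 1.85-fold above d0 on d4 in Cl19 (adjusted p = 0.017) and 2.41-fold in 3c3 (adjusted p = 0.0021). On d6 it did not differ from d0 by the test (changes of -0.32 ± 0.29 and -0.08 ± 0.29, SE). The fall of *Bnip3* from d4 to d6 was called in neither line on the deposited values, relative to *Gapdh* or with only the groups compared. In 3c3 it was also lost without replicate 3. With only the groups compared, neither fall of *Pdk1* was called, nor was its rise to d4 in Cl19.

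The step back from d4 to d6 was called for 7 members in Cl19, all lower (6.95% of all probes, 3.44% higher and 3.51% lower), and for 15 in 3c3, 14 lower and 1 higher (10.5% of all probes, 5.91% higher and 4.58% lower). *Pgk1*, *Pdk1* and *Bnip3* were called higher on d4 and lower again on d6 in both lines, a pattern of 0.0982% of all probes. With these genes counted, 13 members had it in 3c3 (0.933%) and 4 in Cl19 (0.921%). These d4 to d6 counts depended on the arrays and on the fit: they were 1 in Cl19 without d4 replicate 1, 5 in 3c3 without d6 replicate 2 or without all arrays of replicate 3, 3 and 7 relative to *Gapdh*, and 0 and 2 when only the groups compared were fitted. Of *Pgk1*, *Pdk1* and *Bnip3*, only *Pdk1* kept its fall in both lines relative to *Gapdh*. With only the groups compared, none of them kept it.

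Replicates of d4 differed. Replicate 2 was the lowest of the Cl19 d4 arrays for 22 of 36 members (42.6% of all probes) and replicate 1 the lowest of the 3c3 d4 arrays for 22 (24.5%). These low ranks were there on some other days and not on all. Cl19 replicate 2 was the lowest for 23 members on d0 (48.7% of all probes) and 24 on d2 (43.2%). On d6 it was the lowest for 4 (43.5%) and the highest for 16 (28.8%). In 3c3, replicate 1 was the lowest for 14 on d0 (29.1%), 23 on d2 (22.5%) and 17 on d6 (29.1%). *Vegfa*, the growth factor for vessels, read 10.90, 8.50 and 10.03 on Cl19 d4 against 9.01, 8.62 and 8.83 on d0, so that replicate 2 lay below all d0 arrays. The values in 3c3 were 9.26, 11.46 and 10.48 on d4 against 9.01, 8.63 and 8.97 on d0. Its rise was called in 3c3 (1.53 ± 0.56, adjusted p = 0.037) and not in Cl19 (0.99 ± 0.56, adjusted p = 0.16). The call in 3c3 was lost without replicate 3 (adjusted p = 0.16), relative to *Gapdh*, with only the groups compared, by the methods' t-test, and without any 1 of the 6 arrays other than d4 replicate 1 (adjusted p up to 0.20, without d4 replicate 2). *Egln3*, a prolyl hydroxylase that HIF itself induces, read 10.98, 10.88 and 10.97 on d0 in 3c3, 13.34, 13.74 and 13.52 on d4, and 10.96, 10.92 and 11.74 on d6, a rise of 6.01-fold and a fall of 5.02-fold (adjusted p = 3.8e-05 and 0.001). In Cl19 its d4 arrays read 12.07, 11.54 and 12.10 against 11.07, 10.93 and 11.19 on d0, and the rise was not called (adjusted p = 0.082). The difference between the lines in this d4 change was called (-1.75 ± 0.55, adjusted p = 0.036).

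On d6, the end of the differentiation, 19 of 36 members differed from d0 in Cl19 (52.2% of all probes did), 12 higher and 7 lower, and 12 in 3c3 (48.2% of all probes), 10 higher and 2 lower. With the replicate number as a block, 19 were called in 3c3, and the 7 that were added are *Car9*, *Gapdh*, *Higd1a*, *Ldhb*, *Pkm2*, *Slc2a3* and *Tpi1*. Called higher were 22% of all probes in Cl19 and 19.7% in 3c3, and called lower 30.3% and 28.6%. The median change of the members was 0.11 in Cl19 and -0.03 in 3c3, against -0.20 and -0.21 over all probes. By d6 9 members were called with the same sign in both lines (33.6% of all probes), 8 higher (13.2%) and 1 lower (20.4%). Scaled by the 75th percentile, the split became 10 higher against 10 lower for Cl19 and 9 against 7 for 3c3.

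**Figure D2:**
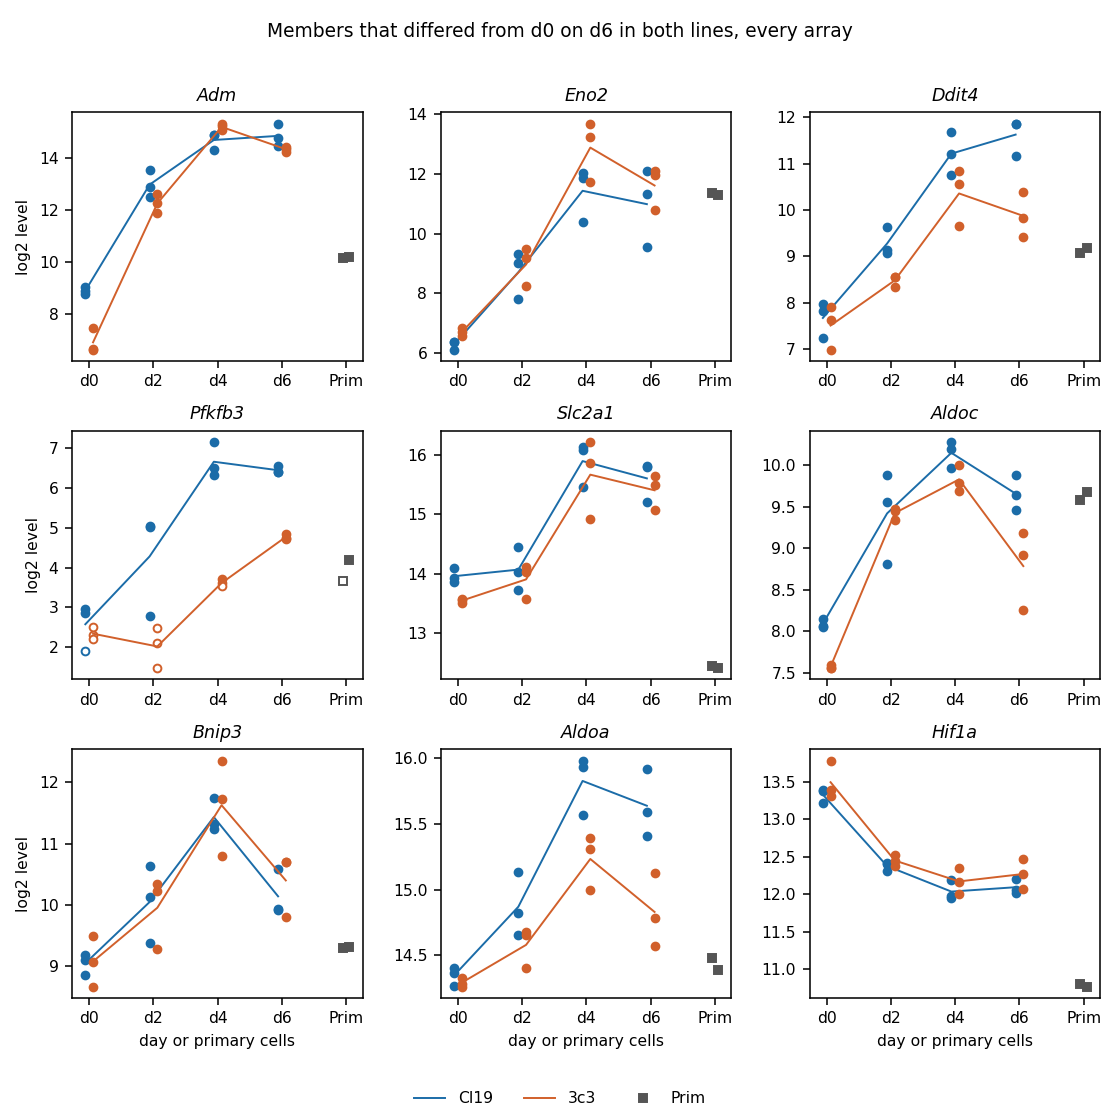
Log2 level (y axis) on every array by day and in primary SMCs (x axis) of the 9 members called from d0 to d6 in both lines; points are arrays, open points were not well above background, and lines join the means of 3 arrays. *Adm* climbed from 8.79-9.03 to 14.44-15.29 in Cl19, while *Hif1a* fell within the first 2 days.

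*Adm*, which encodes adrenomedullin, a peptide that widens vessels, rose most. It read 9.03, 8.79 and 8.89 on d0 in Cl19, 12.48, 12.89 and 13.52 on d2, 14.29, 14.87 and 14.86 on d4, and 14.44, 15.29 and 14.76 on d6. The 3c3 arrays read 7.47, 6.67 and 6.65, then 11.89, 12.25 and 12.59, then 15.05, 15.28 and 15.19, then 14.42, 14.33 and 14.22. No array of a later day overlapped with d0. By d6 it had risen 60.7-fold in Cl19 and 168-fold in 3c3 (adjusted p = 3.4e-12 and 5.6e-13). On the log2 scale it had risen by 4.06 and 5.31 on d2, of 5.92 and 7.39 on d6. *Adm* was also the only member that differed between the lines on d0, higher in Cl19 by 1.98 ± 0.27 (adjusted p = 0.00025; 3.07% of all probes were called, 2% higher and 1.08% lower).

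*Eno2*, the enolase typical of neurons and of hypoxic cells, read 6.38, 6.11 and 6.37 on d0 in Cl19 and 11.32, 12.10 and 9.54 on d6, with 9.30, 7.80 and 9.02 on d2 and 11.88, 10.39 and 12.04 on d4. Levels in 3c3 were 6.85, 6.56 and 6.70 on d0, 8.23, 9.19 and 9.47 on d2, 11.72, 13.68 and 13.25 on d4, and 10.79, 11.95 and 12.10 on d6. Each later day lay above d0, with a wide spread on d4 and d6. The rise by d6 was 26-fold in Cl19 and 30.1-fold in 3c3 (adjusted p = 2.4e-06 and 2.2e-06). *Eno1*, the common enolase, had a change of 0.39 ± 0.16 (adjusted p = 0.046) in Cl19 and of -0.04 ± 0.16 in 3c3, and its other probe was not called in Cl19. The call in Cl19 was lost by the 75th percentile, on the deposited values, relative to *Gapdh* and with only the groups compared.

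*Slc2a1*, the main glucose carrier of most cells, read 13.86, 13.92 and 14.09 on d0 in Cl19, 14.03, 13.73 and 14.45 on d2, 16.09, 15.47 and 16.14 on d4, and 15.79, 15.82 and 15.21 on d6. In 3c3 it read 13.51, 13.57 and 13.56, then 13.57, 14.03 and 14.11, then 14.93, 16.22 and 15.87, then 15.08, 15.50 and 15.64. The d2 arrays overlapped with d0 in Cl19 and lay just above d0 in 3c3, and the d4 and d6 arrays lay above d0 in both. The rise by d6 was 3.14-fold and 3.64-fold (adjusted p = 5e-05 and 1.9e-05). *Slc2a3*, a glucose carrier of high affinity, moved earlier: it was up by 1.91 ± 0.30 on d2 in Cl19 and 1.31 ± 0.30 in 3c3, by 2.41 and 1.61 on d4, and by 0.96 (adjusted p = 0.011) and 0.69 (adjusted p = 0.064) on d6. *Slc16a3*, which exports lactate, changed by -0.89 ± 0.30 from d0 to d2 in 3c3 (adjusted p = 0.041) and by 0.82 ± 0.30 from d0 to d4 (adjusted p = 0.037). The rise of *Slc16a3* to d4 was not called by the 75th percentile or without 3c3 replicate 3.

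*Pfkfb3*, whose product makes the activator of phosphofructokinase, read 2.95, 1.91 and 2.87 on d0 in Cl19 (replicate 2 not well above background), 2.78, 5.05 and 5.02 on d2, 6.50, 6.33 and 7.15 on d4, and 6.55, 6.40 and 6.39 on d6. The values in 3c3 were 2.31, 2.21 and 2.50 on d0 and 2.48, 2.10 and 1.48 on d2, all not well above background, then 3.61, 3.70 and 3.53 on d4 (replicate 3 not well above background), and 4.72, 4.75 and 4.84 on d6. The Cl19 arrays of d4 and d6 lay above all its d0 arrays, and 3c3 reached lower values later. In 3c3 the rise to d4 was not called without replicate 3 or after normexp background correction. The rise by d6 was 14.6-fold in Cl19 (adjusted p = 3.6e-07) and at least 4.29-fold in 3c3 (adjusted p = 0.00012), a bound set by the dimmest probe still above background on those arrays.

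*Ddit4*, a brake on mTOR signalling under stress, read 7.97, 7.23 and 7.82 on d0 in Cl19, 9.07, 9.13 and 9.64 on d2, 10.77, 11.21 and 11.68 on d4, and 11.86, 11.86 and 11.17 on d6. The 3c3 arrays read 7.90, 6.99 and 7.64, then 8.56, 8.33 and 8.56, then 9.66, 10.85 and 10.57, then 9.83, 9.41 and 10.39. The d0 arrays of the lines overlapped, and the d6 arrays of Cl19 were all above those of 3c3. The rise by d6 was 15.5-fold and 5.15-fold (adjusted p = 9e-09 and 9.3e-06).

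Both aldolases were called higher. *Aldoc*, the aldolase of brain, read 8.07, 8.05 and 8.15 on d0 in Cl19, 9.56, 8.82 and 9.89 on d2, 10.28, 9.97 and 10.20 on d4, and 9.63, 9.88 and 9.46 on d6. Levels in 3c3 were 7.56, 7.60 and 7.56, then 9.45, 9.34 and 9.48, then 9.79, 9.69 and 10.01, then 8.92, 8.26 and 9.18. All arrays after d0 lay above d0, already on d2. *Aldoa*, the aldolase of muscle, read 14.37, 14.27 and 14.41 on d0 in Cl19, 14.65, 14.82 and 15.13 on d2, 15.98, 15.57 and 15.93 on d4, and 15.59, 15.92 and 15.41 on d6. In 3c3 it read 14.28, 14.26 and 14.33, then 14.41, 14.68 and 14.66, then 15.00, 15.39 and 15.31, then 14.57, 14.79 and 15.13. The rises by d6 were 2.96-fold and 2.32-fold for *Aldoc*, and 2.45-fold and 1.45-fold for *Aldoa*. Without 3c3 replicate 3, neither *Aldoa* nor *Bnip3* was called from d0 to d6 in 3c3, and *Aldoa* was not called there by the 75th percentile (0.087), on the deposited values (0.40), with only the groups compared or without d6 replicate 3 alone (0.39). *Bnip3* rose 2.13-fold in Cl19 (adjusted p = 0.022) and 2.49-fold in 3c3 (adjusted p = 0.0077) with all arrays. In Cl19 the call of *Bnip3* was lost without d0 replicate 1 or d6 replicate 2, and relative to *Gapdh*.

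*Hif1a*, the α subunit of HIF-1, was the only member called lower by d6 in both lines. With the replicate number as a block, *Higd1a* (-0.52 and -0.50) and *Car9* (-0.93 and -0.45) were also called lower in both. In the fit without that block, the other *Higd1a* probe was called in neither line. It changed by -0.15 in Cl19 (limma adjusted p = 0.54) and by -0.46 in 3c3 (adjusted p = 0.052). *Hif1a* read 13.22, 13.39 and 13.38 on d0 in Cl19, 12.41, 12.41 and 12.31 on d2, 12.19, 11.95 and 11.97 on d4, and 12.21, 12.06 and 12.02 on d6. The values in 3c3 were 13.78, 13.32 and 13.39, then 12.53, 12.45 and 12.38, then 12.35, 12.01 and 12.16, then 12.47, 12.08 and 12.27. Every array after d0 lay below every d0 array, and on the log2 scale most of the fall was there on d2. The fall by d6 was 2.35-fold in Cl19 and 2.33-fold in 3c3 (adjusted p = 3.2e-07 and 6.1e-07), and the other *Hif1a* probe fell by 1.13 and 1.14 on the log2 scale.

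Fewer members were called on d2 than on d6, as was so for all probes, though in 3c3 it was 10 against 12. From d0 to d2, 10 passed in Cl19 (22.6% of all probes, 11.2% higher and 11.5% lower), 8 higher and 2 lower, and 10 in 3c3 (19.1%, 9.8% higher and 9.27% lower), 7 higher and 3 lower. *Adm*, *Eno2*, *Aldoc*, *Tpi1*, *Slc2a3* and *Ddit4* rose in both lines by d2, and *Hif1a* fell. The count in Cl19 was 6 without d2 replicate 3, and that in 3c3 was 4 without replicate 3 and 6 without d2 replicate 1, d2 replicate 3, d0 replicate 2 or d0 replicate 3. No member differed between the lines in the d2 change by limma's test after adjustment (0.323% of all probes did, 0.139% with the higher and 0.184% with the lower change in Cl19), and 4 had an unadjusted p below 0.05: *Pfkfb3*, which was not well above background in 3c3 on d0 and d2, *Epas1* (-1.68), *Adm* (-1.26) and *Pdk2* (-0.94). Without Cl19 d2 replicate 1, 2 members were called. Over all days the F-test passed for 25 members in Cl19 (54.3% of all probes) and 28 in 3c3 (50%).

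Between the lines, the change from d0 to d6 differed for 6 of 36 members (16.7%), about the share of all probes (17.4%). Of these, 2 had the higher change in Cl19 (8.17% of all probes), *Ddit4* and *Aldoa*, and 4 the lower (9.27%), *Epas1*, *Pdk2*, *Ldhb* and *Adm*. With the replicate number as a block it was 5 and 4, and relative to *Gapdh* 0 and 4. Without all arrays of 3c3 replicate 3 it was 1 and 3. *Adm* drew closer between the lines: its mean was 8.91 in Cl19 and 6.93 in 3c3 on d0, and 14.83 and 14.32 on d6. With 1 of the 12 arrays of d0 and d6 left out at a time, *Ddit4* lost its call in 6 cases (without Cl19 d0 replicate 2, Cl19 d6 replicate 1 or 2, 3c3 d0 replicate 1 or 3, or 3c3 d6 replicate 2) and *Aldoa* in 10 (all but d6 replicate 3 of either line), and the 4 lower members kept theirs. On d4 the change differed for 6 (14.4%), 1 with the higher change in Cl19 (6.83%), *Pfkfb3*, which was not well above background on d0 in 3c3, and 5 with the lower (7.55%), *Ldhb*, *Epas1*, *Adm*, *Pdk2* and *Egln3*. Markers moved too: of 8 tested rMAPC markers 5 had the lower d6 change in Cl19 and 0 the higher, and of 7 fibroblast markers 3 had the higher and 1 the lower. Of 7 tested endothelial markers 3 had the lower change in Cl19 and 0 the higher. The summed intensity of the rMAPC list went from 37229-40444 on d0 to 15711-23924 on d6 in Cl19 and from 40480-44769 to 28742-30544 in 3c3. That of the endothelial list was far lower. It went from 291-357 to 63-100 in Cl19 and from 167-193 to 198-228 in 3c3. Their part in the differences of the members was not tested.

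**Figure D3:**
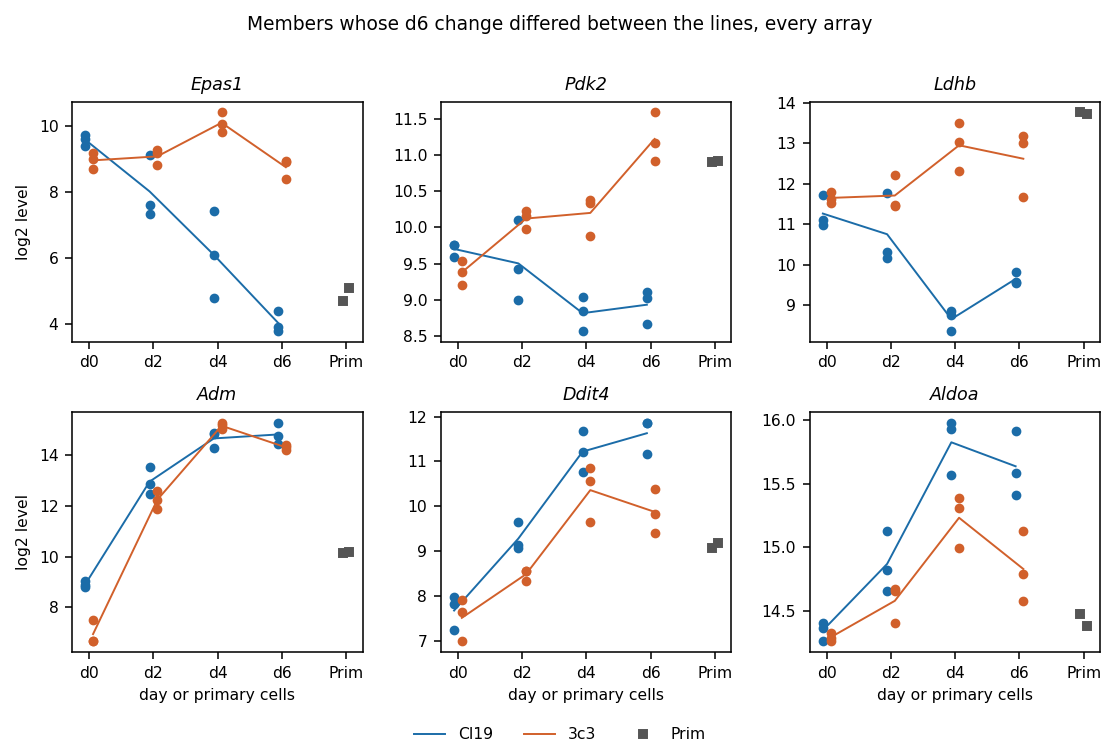
Log2 level (y axis) on every array by day and in primary SMCs (x axis) of the 6 members whose d6 change differed between the lines; points are arrays and lines join the means of 3 arrays. *Epas1* in Cl19 dropped to 3.79-4.39 on d6 while 3c3 stayed at 8.40-8.93.

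*Epas1*, the α subunit of HIF-2, differed most. It read 9.39, 9.60 and 9.72 on d0 in Cl19, 9.10, 7.32 and 7.60 on d2, 7.41, 4.78 and 6.09 on d4, and 3.79, 3.92 and 4.39 on d6. The 3c3 arrays read 9.17, 8.70 and 8.98, then 8.80, 9.16 and 9.25, then 9.82, 10.40 and 10.04, then 8.40, 8.93 and 8.90. In Cl19 the d6 arrays lay far below d0, while in 3c3 the d6 and d0 arrays overlapped. The fall in Cl19 was 46.4-fold (adjusted p = 1.1e-08), the change in 3c3 was -0.21 ± 0.47 (adjusted p = 0.75), and the difference was -5.33 ± 0.67 (adjusted p = 1.3e-05). Replicate 1 of Cl19 d2, at 9.10, was the array that lay near the 3c3 d2 arrays over all genes.

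*Ldhb*, the lactate dehydrogenase subunit that favours pyruvate, and *Pdk2*, a pyruvate dehydrogenase kinase, fell by d4 in Cl19 (-2.61 and -0.89) and rose by d4 in 3c3 (1.30 and 0.82); without 3c3 replicate 3 neither rise was called (1.01 and 0.76), and by the 75th percentile that of *Ldhb* was not. *Ldhb* read 10.97, 11.11 and 11.71 on d0 in Cl19, 11.78, 10.17 and 10.31 on d2, 8.37, 8.75 and 8.85 on d4, and 9.82, 9.58 and 9.55 on d6. Levels in 3c3 were 11.80, 11.53 and 11.62, then 11.45, 11.47 and 12.20, then 13.03, 12.32 and 13.50, then 13.17, 11.66 and 13.01. The d6 arrays of Cl19 lay below d0, and those of 3c3 overlapped with d0. *Ldhb* fell 3.06-fold in Cl19 (adjusted p = 0.0023), had a change of 0.97 ± 0.41 in 3c3 (adjusted p = 0.056), and the changes differed by -2.58 ± 0.57 (adjusted p = 0.0032). *Pdk2* read 9.76, 9.59 and 9.76 on d0 in Cl19, 10.10, 8.99 and 9.42 on d2, 9.03, 8.57 and 8.84 on d4, and 9.10, 9.03 and 8.67 on d6. In 3c3 it read 9.54, 9.21 and 9.39, then 10.23, 9.98 and 10.16, then 10.38, 9.88 and 10.33, then 10.92, 11.59 and 11.16. *Pdk2* fell 1.71-fold in Cl19 (adjusted p = 0.0079) and rose 3.59-fold in 3c3 (adjusted p = 2.3e-06), and the changes differed by -2.61 ± 0.32 (adjusted p = 1.2e-05).

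Other members passed in only 1 of the lines, and the difference between the lines was not called for them. *Ndrg1*, a gene induced by hypoxia and differentiation, rose 5.59-fold by d6 in 3c3 (adjusted p = 0.00091), had a change of 0.60 ± 0.55 in Cl19, and the difference had an adjusted p of 0.11. *Pfkp*, a phosphofructokinase, *Hk1*, the hexokinase of most tissues, and *Car9*, a carbonic anhydrase that exports acid, fell by 1.68, 0.77 and 0.93 on the log2 scale in Cl19. None of these falls was called on the deposited values (-1.23, -0.45 and -0.48), each lost its call when single arrays were left out (*Pfkp* without d0 replicate 2 or d6 replicate 1 or 3, *Hk1* without d6 replicate 1 or 3, *Car9* without d0 replicate 3 or d6 replicate 2), and the other *Hk1* probe was not called (-1.18, adjusted p = 0.23). The fall of *Pfkp* was not called relative to *Gapdh* either. *Pgam1*, phosphoglycerate mutase, fell by 0.59 in 3c3 and its other probe fell by 0.83; the array's annotation places the *Pgam1* probe on chromosome 10 and RefSeq the gene on chromosome 1, so that related sequences may share its signal. *Vegfa*, *P4ha1*, *Pfkl*, *Pfkm*, *Pgam2* and *Gpi* passed on d6 in neither line.

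*Gapdh*, the usual reference, varied little among the rMAPC arrays. It read 15.70, 15.65 and 15.80 on d0 in Cl19, 15.56, 15.54 and 15.92 on d2, 15.57, 15.88 and 15.70 on d4, and 15.48, 15.63 and 15.94 on d6. The values in 3c3 were 15.74, 15.67 and 15.70, then 15.60, 15.53 and 15.65, then 15.75, 15.19 and 15.62, then 15.66, 14.91 and 15.42, and in Prim 16.10 and 16.11. The Cl19 arrays of all days overlapped, each 3c3 d6 array lay below all 3c3 d0 arrays, and both Prim arrays lay above every rMAPC array. By d6 *Gapdh* had changed by -0.03 ± 0.18 in Cl19, with an adjusted p of 0.89, and by -0.37 ± 0.18 in 3c3, with 0.091. The fall in 3c3 was called with the replicate number as a block (-0.37 ± 0.13, adjusted p = 0.026), with the slide as a random block, after scaling by the 75th percentile (-0.76 ± 0.20), on the deposited values, with normexp and without d6 replicate 1. *Gapdh* was higher in Prim than on d6 of 3c3 by 0.77 ± 0.20 (adjusted p = 0.0018) and of Cl19 by 0.42 ± 0.20 (adjusted p = 0.065). Its group means spanned 0.77, a narrower range than that of 94% of tested probes, whose median range was 2.33. Among 12 other common reference genes the range went from 0.46 for *Rpl13a* to 4.59 for *B2m*.

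**Figure D4:**
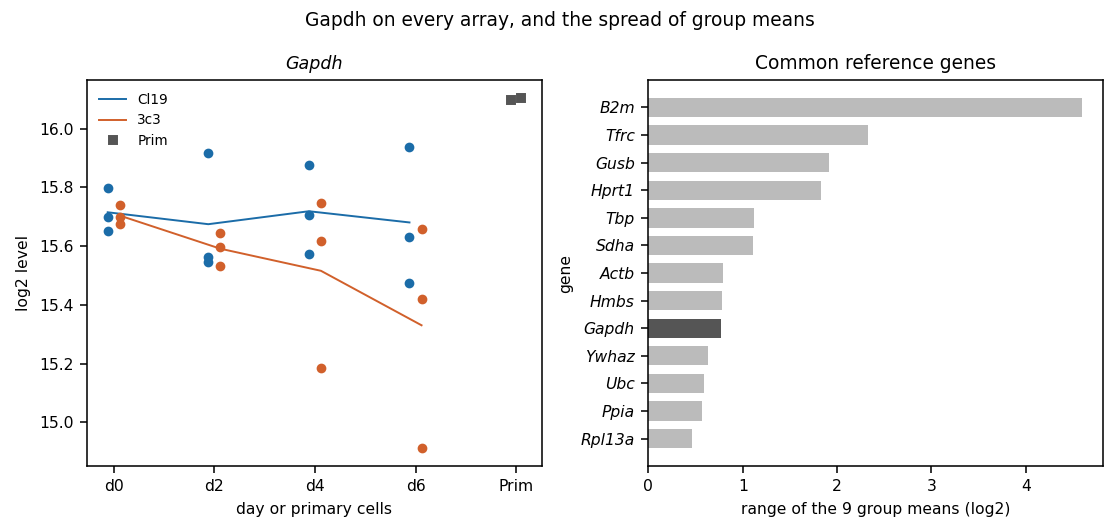
Left, log2 level of *Gapdh* (y axis) on every array by day and in primary SMCs (x axis), with lines joining the means of 3 arrays. Right, the range of the 9 group means (x axis, log2) of *Gapdh* and 12 other reference genes (y axis); *Gapdh*, at 0.77, lies in the lower part of the order.

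Genes outside the 38 that belong to the same pathways moved in both directions. Of 36 tested further HIF pathway and hypoxia genes, Cl19 had 17 higher and 8 lower on d4, and 3c3 had 18 and 3. On d6 it was 14 and 10 in Cl19, and 14 and 6 in 3c3. Of all probes 20.2% were higher and 27.1% lower on d4 in Cl19 and 14.8% and 22.2% in 3c3, and on d6 22% and 30.3%, and 19.7% and 28.6%. The median change of the list on d4 was 0.67 and 0.70. *Nos2*, the inducible nitric oxide synthase, rose by 3.10 and 5.66 on d4, *Ankrd37*, a HIF target, by 1.50 and 2.80, and *Mxi1*, a Myc antagonist, by 1.32 and 1.92. *Siah2*, a ligase that marks prolyl hydroxylases for breakdown, rose by 2.47 and 2.14, and *Tgfb3*, which other signals also control, by 6.17 and 4.84. *Tfrc*, the transferrin receptor, fell by 1.79 and 1.27, and *Arnt2*, a partner of HIF α subunits, by 1.63 and 1.06. These genes were chosen after their values were seen. Of 26 tested further genes of glycolysis and glucose use, Cl19 had 7 higher and 9 lower on d4, and 3c3 had 7 and 4, with medians of 0.12 and -0.03. Of 7 tested genes of the pentose phosphate pathway, which branches off glycolysis, 6 had fallen by d4 in Cl19 and 5 in 3c3, and 0 had risen. *Tkt*, transketolase, fell by 0.75 in Cl19 and 0.49 in 3c3 from d0 to d4.

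For several enzymes of glycolysis, Prim was higher than d6 cells in 1 isoform and lower in another. Against d6 of Cl19, 24 of 36 members differed (71.4% of all probes did, 32.8% higher and 38.6% lower), 6 higher and 18 lower in Prim. Against d6 of 3c3 21 differed (71.5%, with 33.4% higher and 38.1% lower), 7 higher and 14 lower. Against both lines 5 members were higher in Prim (28.1% of all probes), *Hk1*, *Pfkm*, *Pgam2*, *Ldhb* and *Car9*, and 12 were lower (32.4%), *Hk2*, *Pfkl*, *Pfkp*, *Pgk1*, *Pgam1*, *Ldha*, *Slc2a1*, *Slc2a3*, *Slc16a3*, *Adm*, *Egln3* and *Hif1a*. The split depended on the scaling: by the 75th percentile, 11 were higher and 11 lower against Cl19, and 14 higher and 12 lower against 3c3. On the deposited values, where the median of all probes shifted by -2.17 and -2.09, it was 4 and 29, and 4 and 30. Among the 17, *Pgam1* turned to 0.071 and 0.51 under the 75th percentile, and *Ldhb* to -0.44 against 3c3 on the deposited values. Prim differed in scan day and slide from both lines, and possibly in the oxygen of the culture, so that these and the cell type cannot be told apart. Of 11 smooth muscle markers with a probe, 10 were well above background on both Prim arrays. All 8 tested epithelial markers were lower in Prim than on d6 of both lines, with a summed intensity of 1455 to 1514 and 7 of 9 not well above background, and 5 of 7 fibroblast markers were higher, with a sum of 102132 to 104624 against at most 15340 on any rMAPC array. The part of these differences in the results on the members was not tested. The labels do not say that the 2 Prim arrays are separate preparations, and they differed by a median of 0.12, less than any pair of rMAPC replicates (0.17 to 0.43); with the arrays averaged as 1 sample, 22 and 19 members were called, in a fit where the lone sample is assumed to vary like the other groups.

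**Figure D5:**
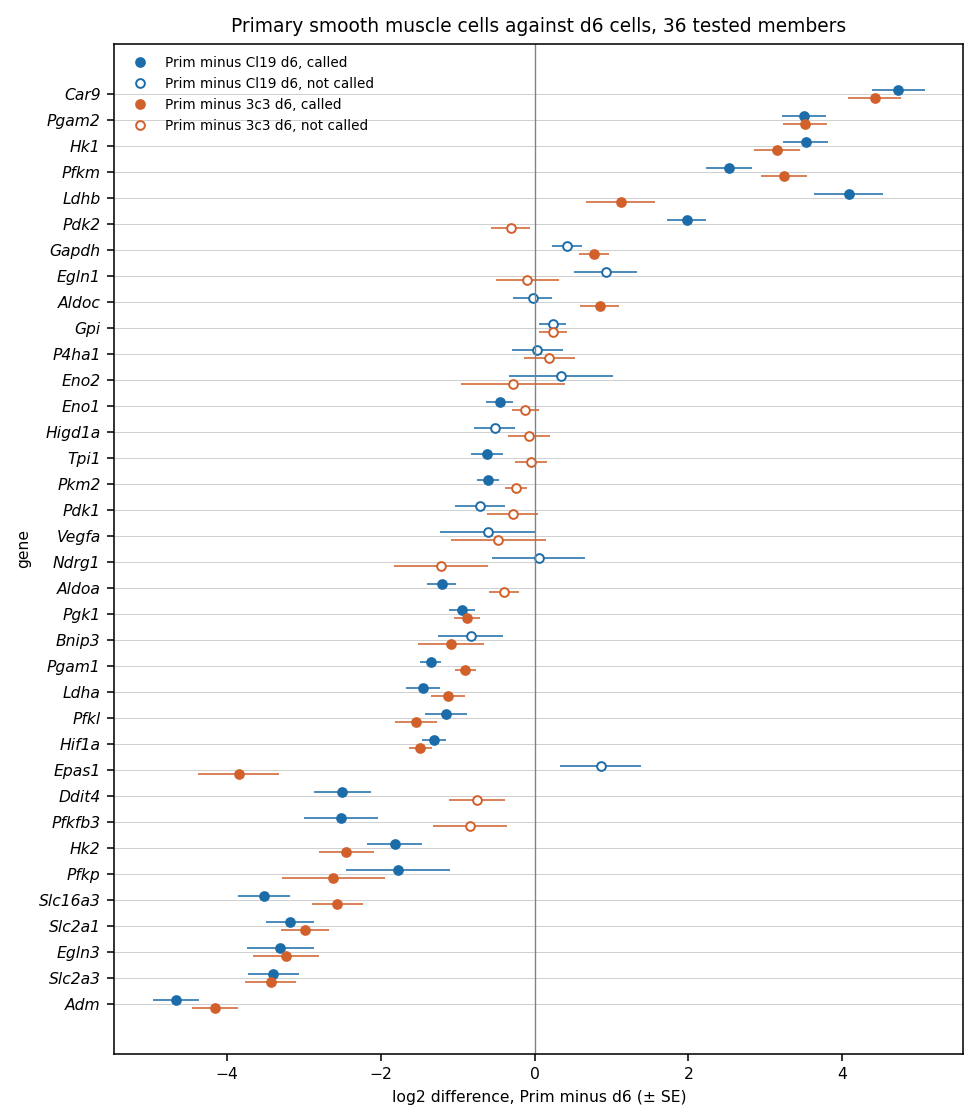
Log2 difference between primary SMCs and d6 cells (x axis, ± SE of the fit) of the 36 tested members (y axis), against Cl19 and against 3c3; filled symbols passed the test. *Car9*, *Hk1* and *Pfkm* lie at 2.5 or more and the transporters *Slc2a1*, *Slc2a3* and *Slc16a3* at -2.5 or less against both lines.

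Members of the same step differed from d6 in opposite directions. *Hk1* averaged 10.99 ± 0.02 (SD, n = 2) in Prim, against 7.37 to 7.62 on d6 of Cl19 and 7.20 to 8.40 of 3c3, 11.5-fold and 8.9-fold higher. *Hk2*, the hexokinase that HIF and insulin induce, read 5.91 and 6.39, 3.53-fold and 5.45-fold lower than d6. *Pfkm*, the muscle phosphofructokinase, was 5.77-fold and 9.46-fold higher in Prim, whereas *Pfkl*, the liver form, was 2.23-fold and 2.91-fold lower. *Ldhb* was 17-fold higher than in Cl19 and 2.17-fold higher than in 3c3, and *Ldha* 2.73-fold and 2.18-fold lower. *Pgam2*, the muscle mutase, read 6.20 and 6.09 in Prim, and it lay between 2.09 and 3.12 on all rMAPC arrays, several of them not well above background. Against d6 of Cl19 the difference was 3.50 ± 0.29, and on d6 of 3c3 only 1 of 3 arrays measured it. Of the 11 skeletal and cardiac muscle markers, 6 were well above background on both Prim arrays, among them *Myh1* and *Myh2*, and 5 on neither, among them *Ckm*; the part of such cells in the level of *Pgam2* and *Pfkm* was not tested.

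*Car9* and *Adm* stood farthest from d6, in opposite directions. *Car9* read 9.63 and 9.71 in Prim, 4.95, 4.73 and 5.14 on d6 of Cl19 and 5.52, 4.46 and 5.75 on d6 of 3c3, 26.5-fold and 21.5-fold lower than in Prim (adjusted p = 2.7e-10 and 7.2e-10). No rMAPC array of any day exceeded 6.20. *Adm* read 10.15 and 10.19 in Prim, above all d0 arrays and below all arrays of d2, d4 and d6, and was 25.3-fold and 17.8-fold lower than on d6 (adjusted p = 4.3e-11 and 2.4e-10). *Slc2a3* read 5.41 and 5.75 in Prim, 8.71, 8.97 and 9.24 on d6 of Cl19 and 8.36, 9.12 and 9.55 on d6 of 3c3, 10.5-fold and 10.8-fold lower in Prim (adjusted p = 2.2e-08 and 1.8e-08). *Slc2a1* was 9.09-fold and 7.9-fold lower, *Slc16a3* 11.5-fold and 5.93-fold, and *Egln3* 9.88-fold and 9.42-fold. *Eno2* and *Aldoc* were not called different between Prim and d6 of Cl19 (0.34 ± 0.68 and -0.02 ± 0.25), and *Epas1* was 14.4-fold lower in Prim than on d6 of 3c3 and not called different from Cl19 (0.86 ± 0.53, adjusted p = 0.15). *Pfkp* was not well above background in Prim, and it was at least 1.01-fold and 1.8-fold lower there.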

How the data were processed

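RNA of 26 samples in 9 groups was hybridised to 1-colour Agilent Whole Rat Genome arrays (45018 features, annotation rn4), read with Feature Extraction 10.1.1.1 per the labels. The deposited scanner files hold the processed signal, a background-corrected intensity. The deposited value table holds its log2 (largest difference 5.2e-14, column medians 1.62 to 4.12), with no normalization between arrays, so that its direction and scale are known. No feature was saturated. The number of arrays limits the precision.

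Control and outlier features were dropped, log2 signals were quantile-normalized over the gene features and averaged by probe (41012 probes), and each gene was taken from its probe of highest mean. limma 3.58.1 (R 4.3.3) fitted all 26 arrays in 9 groups on the 24442 probes that passed as well above background throughout at least 1 group. Adjusted p-values are Benjamini-Hochberg over these. The errors of changes are standard errors of the fit. Python 3.11.15 and matplotlib 3.10.9 made the tables and figures. The test was checked on simulated data in which arrays varied independently. That check does not cover the shared deviations of arrays on a slide, so the error rate under this pairing was not tested.

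The members and lists were chosen with earlier results of these data known, and the comparisons with d4 were added after the values were seen. Values on every array were to be given for *Gapdh*, for up to 10 members with the largest d6 change called with the same sign in both lines, for the 4 largest differences between lines and for the 4 largest differences of Prim; others were singled out afterwards. Per slide, as the scanner headers give it, the 4 days of a replicate number of a line shared a slide: same-numbered samples deviated together in 16 of 18 pairs in Cl19 (correlation above 0.1, median 0.33) and 18 of 18 in 3c3 (median 0.41). Alternatives were the 75th percentile scaling, the deposited table, levels relative to *Gapdh*, normexp (offset 50), no filter, a floor for dim probes, the mean of a gene's probes, the replicate block, the slide as a random block (correlation 0.31), the compared groups alone, the t-test of the methods, each array left out, and the doubted arrays left out. Columns of other samples were not found.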

Additional observations from a re-analysis of the deposited data

Results flagged for a closer look

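The change from d0 to d6 differed between the lines, by limma's test of the difference, for 6 members. The change in Cl19 minus that in 3c3 was -5.33 for *Epas1*, -2.61 for *Pdk2*, -2.58 for *Ldhb*, -1.47 for *Adm*, 1.59 for *Ddit4* and 0.75 for *Aldoa*. *Epas1* and *Pdk2* also differed in the change to d4 (-4.62 and -1.71), as did *Ldhb* (-3.90) and *Adm* (-2.48). Groups of 2 or 3 arrays were too small to test for a single array far from the others.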

How the results depend on the processing

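Of the values of single members under all alternatives, 5548 kept their direction and side of the threshold, 316 lost the call, 154 gained it and 22 turned, all of them comparisons with Prim. Scaled by the 75th percentile, the difference from Cl19 d6 turned for *Tpi1* (0.065), *Pgam1* (0.071), *Eno1* (0.75) and *Pkm2* (0.44), and that from 3c3 d6 for *Aldoa* (0.68), *Tpi1* (0.58), *Pgam1* (0.51), *Eno1* (1.09), *Pkm2* (0.82) and *Higd1a* (0.79). On the deposited table it turned against Cl19 for *Gpi* (-1.19), *Eno2* (-1.69), *Pdk2* (-0.23), *Ndrg1* (-2.20), *P4ha1* (-1.95), *Egln1* (-1.22) and *Epas1* (-1.34), and against 3c3 for *Gpi* (-1.14), *Aldoc* (-1.50), *Ldhb* (-0.44) and *P4ha1* (-1.81). Relative to *Gapdh*, *Gpi* turned against 3c3 (-0.53). The scaling itself moved the median of all probes there, from -0.13 against both lines to 0.21 by the 75th percentile, and to -2.17 and -2.09 on the deposited table.

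The pairing by slide was fitted as a replicate block: it called 19 members from d0 to d6 in 3c3 in place of 12, among them all 12, called the change of *Gapdh* there (-0.37), and moved no other count by over 1.5 times. The change of *Gapdh* in 3c3 was also called with the slide as a random block (-0.37), by the 75th percentile (-0.76), on the deposited table (-0.45), with normexp (-0.41) and without d6 replicate 1 (-0.54). Between Prim and 3c3 d6, 34 members differed on the deposited table. From d4 to d6, 3 members in Cl19 and 7 in 3c3 were called relative to *Gapdh*, 0 and 2 when only the groups compared were fitted, 0 and 0 by the methods' t-test after Benjamini-Hochberg, and 5 in 3c3 without replicate 3. From d0 to d2, fitting only the groups compared gave 6 in Cl19, the t-test gave 16 in 3c3 at its threshold and 3 in Cl19 after adjustment, and 4 were called in 3c3 without replicate 3. Between the lines on d0, 4 were called with only the groups compared, 12 by the t-test and 3 after adjustment. Without Cl19 d2 replicate 1, 2 members differed between the lines in the d2 change. The cause of these shifts was not tested.

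Leaving out 1 array at a time gave 16 to 18 called members from d0 to d6 in Cl19 and 11 to 15 in 3c3, 19 to 25 and 20 to 22 from d0 to d4, 6 to 11 and 6 to 10 from d0 to d2, 1 to 7 and 5 to 14 from d4 to d6, 20 to 26 and 23 to 28 over time, 21 to 25 and 18 to 23 against Prim, 4 to 7, 5 to 7 and 0 to 2 for the differences between lines on d6, d4 and d2, and 1 on d0. The change of *Gapdh* ran from -0.16 to 0.07 in Cl19 and from -0.54 to -0.16 in 3c3. Members with the highest mean on d4 numbered 22 to 25 in Cl19 and 24 to 28 in 3c3 over the scalings and the d4 and doubted arrays left out. Between the lines on d6, 3 were higher and 3 lower with normexp, 0 and 4 relative to *Gapdh*, 1 and 4 with no filter, 5 and 4 with the replicate block, and 4 and 4 with the slide as a random block.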
